A study of Mus musculus with 5 samples.

Results

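This account describes the transcripts of 10 genes at the centre of the mammalian circadian clock in mouse hearts frozen after a short ischemia and reperfusion. They are the activators Arntl, Clock and Npas2 and the repressors Cry1, Cry2, Per1, Per3, Ciart, Bhlhe40 and Bhlhe41. The genes were chosen by name from their known roles at E-boxes, with earlier results of these data known. Each was measured by 1 probe set annotated with its symbol alone, out of 22180 genes with such a probe set, and all 10 were among the 15294 genes tested, those with a mean log2 value of at least 3.42. Per2 was not analysed here.

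The antagonist group held 3 hearts and the sham group 2, all from wild-type C57Bl6J mice at zeitgeber time 12, that is 12 h after lights on. The mice of the antagonist group had received a compound against the nuclear receptor REV-ERB alpha intraperitoneally, given as 10 µM by the labels, at 4 h and at 1 h ahead of the heart protocol, and the sham mice had not. The labels do not name the compound, the vehicle, or the sex and age of the animals. Each heart was perfused with buffer outside the body on a Langendorff column for 20 min, left without flow for 20 min and reperfused for 20 min, so both groups carry the ischemia and neither shows the uninjured heart. The samples are described as biological replicates, and 3 arrays against 2 set the precision of everything that follows.

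The clock is a feedback loop of transcription. BMAL1, the product of Arntl, pairs with CLOCK or with its paralogue NPAS2 and binds E-boxes in the promoters of the Per and Cry genes, of Ciart, Bhlhe40 and Bhlhe41, and of the REV-ERB genes themselves. PER and CRY proteins then enter the nucleus and block the BMAL1 complex, CHRONO (from Ciart) binds BMAL1 and represses it, and DEC1 (Bhlhe40) and DEC2 (Bhlhe41) compete for the same E-boxes. REV-ERB receptors close a second loop: they repress Arntl, and to a lesser degree Clock, Npas2 and Cry1, through an element they share with the ROR activators. In rodent hearts Arntl transcript is near its daily low around lights off, when Per transcripts are near their high.

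Promoter windows from RefSeq (assembly GRCm38.p6, 250 bases before to 50 bases after an annotated transcript start) were found for 9 of the 10 genes, in 13 windows. They were searched on both strands for the E-box CACGTG, the variant E′-box CACGTT, the D-box TTATGTAA, the cAMP response element TGACGTCA and the REV-ERB and ROR element (by its usual consensus, an AT-rich flank before a nuclear receptor core sequence). These windows are shown because their genes either had groups that did not overlap (Arntl, Cry1, Per3 and Bhlhe41) or held the largest number of E-boxes (Ciart, with 3). Of the Arntl windows, only the one with a match is shown. Capitals mark the motif matches, the strand is that of the gene, and no matches overlapped one another. The windows are chr7:113207261-113207560 on the plus strand for Arntl, and, on the minus strand, chr10:85185005-85185304 for Cry1, chr4:151044616-151044915 for Per3, chr3:95882179-95882478 for Ciart and chr6:145865371-145865670 for Bhlhe41.
Arntl: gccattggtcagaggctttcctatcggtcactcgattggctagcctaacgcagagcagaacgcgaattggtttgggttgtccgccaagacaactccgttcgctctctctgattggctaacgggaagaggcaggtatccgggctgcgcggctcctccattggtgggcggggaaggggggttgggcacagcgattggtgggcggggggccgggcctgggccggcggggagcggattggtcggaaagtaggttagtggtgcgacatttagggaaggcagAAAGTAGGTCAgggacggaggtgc
Cry1: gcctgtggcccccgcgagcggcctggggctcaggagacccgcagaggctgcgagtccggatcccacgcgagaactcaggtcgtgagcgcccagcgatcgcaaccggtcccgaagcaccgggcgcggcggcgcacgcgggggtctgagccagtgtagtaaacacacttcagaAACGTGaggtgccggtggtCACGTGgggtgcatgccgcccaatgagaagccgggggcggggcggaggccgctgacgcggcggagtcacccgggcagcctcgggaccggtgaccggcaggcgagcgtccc
Per3: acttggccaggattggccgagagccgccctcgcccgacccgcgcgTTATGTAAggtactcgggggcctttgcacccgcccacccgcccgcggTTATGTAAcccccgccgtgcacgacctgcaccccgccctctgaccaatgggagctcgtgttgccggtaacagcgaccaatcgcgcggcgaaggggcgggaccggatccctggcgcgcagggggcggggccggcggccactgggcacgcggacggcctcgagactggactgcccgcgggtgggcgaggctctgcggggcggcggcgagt
Ciart: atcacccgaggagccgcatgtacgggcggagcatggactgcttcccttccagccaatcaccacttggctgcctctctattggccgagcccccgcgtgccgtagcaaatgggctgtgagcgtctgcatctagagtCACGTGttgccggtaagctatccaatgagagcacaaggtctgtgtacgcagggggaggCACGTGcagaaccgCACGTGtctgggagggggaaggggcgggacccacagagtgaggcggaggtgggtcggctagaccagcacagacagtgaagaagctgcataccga
Bhlhe41: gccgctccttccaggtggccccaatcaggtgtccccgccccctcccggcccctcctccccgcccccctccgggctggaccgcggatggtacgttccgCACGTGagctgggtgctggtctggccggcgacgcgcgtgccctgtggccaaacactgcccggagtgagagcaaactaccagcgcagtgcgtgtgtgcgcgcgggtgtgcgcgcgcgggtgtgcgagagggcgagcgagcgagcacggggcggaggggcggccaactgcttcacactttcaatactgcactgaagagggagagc

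With the transcript start counted as 0, the printed Arntl window has 1 match to the REV-ERB and ROR element at positions 26 to 36, just inside the transcript, and no E-box. A close run earlier in that window, aaagtaggtta, differs from the matched run in 1 letter and was not counted. The Cry1 window pairs an E′-box (-79 to -74, read on the opposite strand) with an E-box (-60 to -55). Per3 has D-boxes at -205 to -198 and -158 to -151 and no E-box in this window, Ciart has E-boxes at -116, -58 and -44 (first base), and Bhlhe41 has 1 E-box at -153 to -148. In the windows not printed, Per1 has an E-box at -166 to -161 of one start and Cry2 an E′-box at -166 to -161, while those of Clock and Npas2 hold none of the motifs. The other Arntl window and the other Per1 window also hold none. E-boxes were thus found in 4 of the 13 windows, against 7.15% of 32851 mouse promoter windows. The corresponding shares were 2 of 13 against 4.68% for the E′-box, 1 of 13 against 0.938% for the D-box, 1 of 13 against 0.384% for the REV-ERB and ROR element, and 0 of 13 against 1.79% for the cAMP response element. These shares are descriptive only. The genes were chosen for known roles at E-boxes, and the windows of Arntl overlap, as do some of Clock. A match is a run of letters and was not tested for binding. Other elements of these genes may lie outside the windows or depart from the letters searched.

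**Figure D1:**
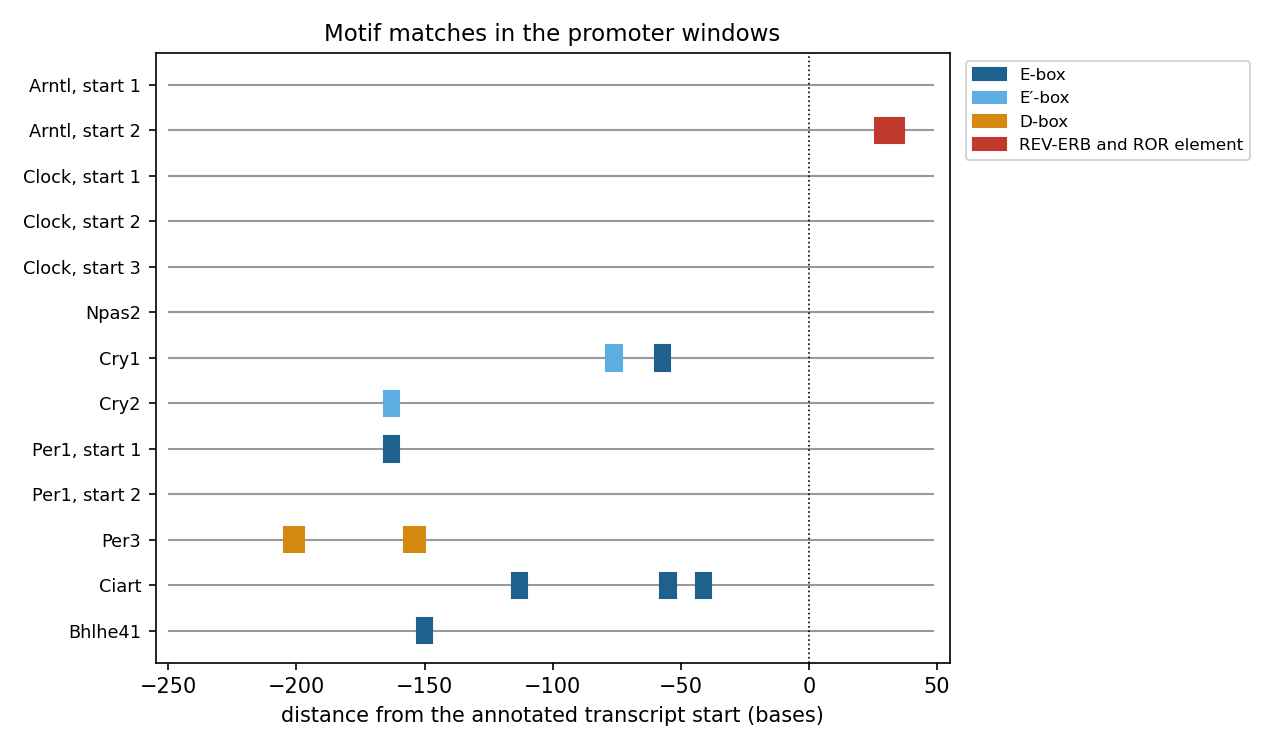
Motif matches in the 13 promoter windows of 9 genes, by distance in bases from the annotated transcript start (dotted line). Each grey line is a window and each box a match; E-boxes lie in windows of Cry1, Per1, Ciart and Bhlhe41, D-boxes in that of Per3, and the REV-ERB and ROR element in 1 window of Arntl.

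Some properties of the arrays touch the values below. Sham replicate 1 stood apart on the first principal component, at -20.6, with the other arrays between 0.22 and 14.0. All 10 heart muscle markers were measured, with a summed level of 15.20 to 15.24 in antagonist hearts and 15.19 to 15.25 in sham hearts (log2 of the summed linear values). The 7 atrial muscle markers summed to 13.6 on antagonist replicate 2, against at most 12.1 on any other array. On the same array, 6 mesothelial markers summed to 8.004, against at most 7.108 elsewhere, and 7 fat cell markers to 11.23, against at most 10.98. That array also had the highest value of Arntl and the lowest of Bhlhe41, which differed by 0.29 and -0.33 without it. The 6 endothelial markers summed to 11.32 to 11.34 in antagonist hearts and 11.43 to 11.46 in sham hearts, and the 6 markers of smooth muscle and pericytes to 11.46 to 11.55 in antagonist hearts and 11.59 to 11.79 in sham hearts. Taken singly, only 1 of the 6 endothelial and 2 of the 6 smooth muscle and pericyte markers were lower without overlap. Of 6 fibroblast markers 2 were, and their sums overlapped. Over all genes tested this share was 6.33%. None of these markers had a value of 0, and their part in the clock values was not tested. In whole tissue, fewer cells of a type and less RNA per cell cannot be told apart.

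Among the activators, 2 of 3 had a higher mean in the antagonist hearts, where 47.7% of all genes tested did. Arntl lay higher by 0.33 on the log2 scale, while Clock and Npas2 had nearly the same means in both groups. Arntl, which encodes BMAL1, measured 4.70, 4.79 and 4.66 on antagonist replicates 1 to 3, against 4.21 and 4.57 on sham replicates 1 and 2. Every antagonist array was above both sham arrays, and the sham arrays lay farther apart (0.36) than the group means did. The log2 difference was 0.33 ± 0.13 (limma SE; 95% interval -0.04 to 0.71), or 1.26-fold. It did not pass (limma adjusted p = 0.64 over all genes; exact two-sided permutation p = 0.1, the smallest that the 10 divisions of 5 arrays allow). The difference was 0.15 without sham replicate 1 and 0.51 without sham replicate 2. The array medians lay between 3.92 and 3.95, below every value of this probe set.

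Clock, which encodes the partner of BMAL1, measured 8.43, 8.52 and 8.58 on the antagonist arrays, against 8.78 and 8.23 on the sham arrays. The antagonist values all lay between the sham values, and their spread (SD 0.07, n = 3) was smaller than that of the sham values (SD 0.39, n = 2). The difference of 0.0086 ± 0.19 (SE) has a 95% interval of -0.54 to 0.56, and differences inside that range cannot be told from 0 with these arrays. Its sign depended on which sham heart was used, with 0.28 without sham replicate 1 and -0.27 without sham replicate 2. Npas2, the paralogue of Clock, was given the same value, 4.85, on all 5 arrays, as were 6.03% of the genes tested. Such a constant is what the summary of the probes returned and gives no spread between hearts.

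The repressors lay lower in the antagonist hearts in 6 of 7 cases, where 46.3% of all genes tested had a lower mean. The exception was Cry1, and among the 6, Cry2 had nearly the same mean in both groups (difference -0.0015). The median log2 difference of the 7 was -0.09, against 0 over all genes tested, and that of the 3 activators was 0.0086. The largest differences were those of Bhlhe41 and Per3, the only repressors whose antagonist values all lay below the sham values and whose 95% intervals left out 0. None of the 10 genes passed limma's test over all genes, in which 0% of 15294 genes passed. At an unadjusted limma p under 0.05 there were 2 of the 10, Per3 and Bhlhe41, where 4.6% of all genes were found.

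Cryptochromes are strong repressors of the BMAL1 complex. Cry1 measured 6.30, 6.15 and 6.15 on the antagonist arrays, against 6.13 and 6.13 on the sham arrays. The groups do not overlap, but replicate 1 made most of the difference: it was 0.07 ± 0.06 (SE) with all arrays and 0.02 without antagonist replicate 1, and the exact permutation p was 0.5. Cry2 measured 6.60, 6.60 and 6.58 on the antagonist arrays, inside the span of 6.55 and 6.63 on the sham arrays. Its difference of -0.0015 had a 95% interval of -0.08 to 0.08, the narrowest of the genes that varied, and the sign turned without sham replicate 2 (0.04) or without antagonist replicate 3 (0.0045).

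The period genes had group differences of unlike size, and whether they differ from each other in their response was not tested. Per3 measured 6.44, 6.53 and 6.47 on the antagonist arrays, against 6.75 and 6.62 on the sham arrays. All antagonist values were below both sham values. Its difference was -0.20 ± 0.06 (SE; 95% interval -0.37 to -0.04), or 0.87-fold, and stayed between -0.27 and -0.14 whichever array was left out. The limma adjusted p was 0.64 and the exact permutation p 0.1. Per1, the period gene that also responds to glucocorticoids and to cAMP signalling, measured 8.09, 8.24 and 8.24 on the antagonist arrays, against 8.24 and 8.26 on the sham arrays. Antagonist replicate 1 alone was low, and the other antagonist arrays had exactly the value of sham replicate 1. The difference of -0.06 ± 0.06 (SE) was -0.01 without antagonist replicate 1.

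Ciart, which encodes CHRONO, had the same layout as Per1. It measured 6.43, 6.59 and 6.59 on the antagonist arrays, against 6.59 and 6.78 on the sham arrays, so that the groups met at a shared value. The difference was -0.15 ± 0.09 (SE; 95% interval -0.41 to 0.11). It was -0.24 without sham replicate 1 and -0.05 without sham replicate 2, the array with the highest value.

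The DEC repressors are close paralogues that act on the same elements. Bhlhe41 (DEC2) measured 6.47, 6.18 and 6.19 on the antagonist arrays, against 6.57 and 6.76 on the sham arrays. The antagonist hearts were all lower, replicates 2 and 3 by more than replicate 1. Its difference of -0.38 ± 0.13 (SE; 95% interval -0.76 to -0.0092), or 0.77-fold, was the largest of the 10 genes in size, and 2.91% of the genes tested differed by at least as much in either direction. The limma adjusted p was 0.64, and the exact permutation p was 0.2, because another division of the same 5 arrays gave at least as large a difference. With single arrays left out the difference ranged from -0.48 to -0.29. Bhlhe40 (DEC1), which is also induced by hypoxia, measured 8.70, 8.82 and 8.54 on the antagonist arrays, against 8.86 and 8.70 on the sham arrays. Its groups overlapped, and the difference of -0.09 ± 0.11 (SE; 95% interval -0.40 to 0.21) depended on single arrays. It was -0.01 without sham replicate 1 and -0.02 without antagonist replicate 3, but -0.17 without sham replicate 2 and -0.16 without antagonist replicate 2. Whether the DEC genes differ from each other in their response was not tested.

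**Figure D2:**
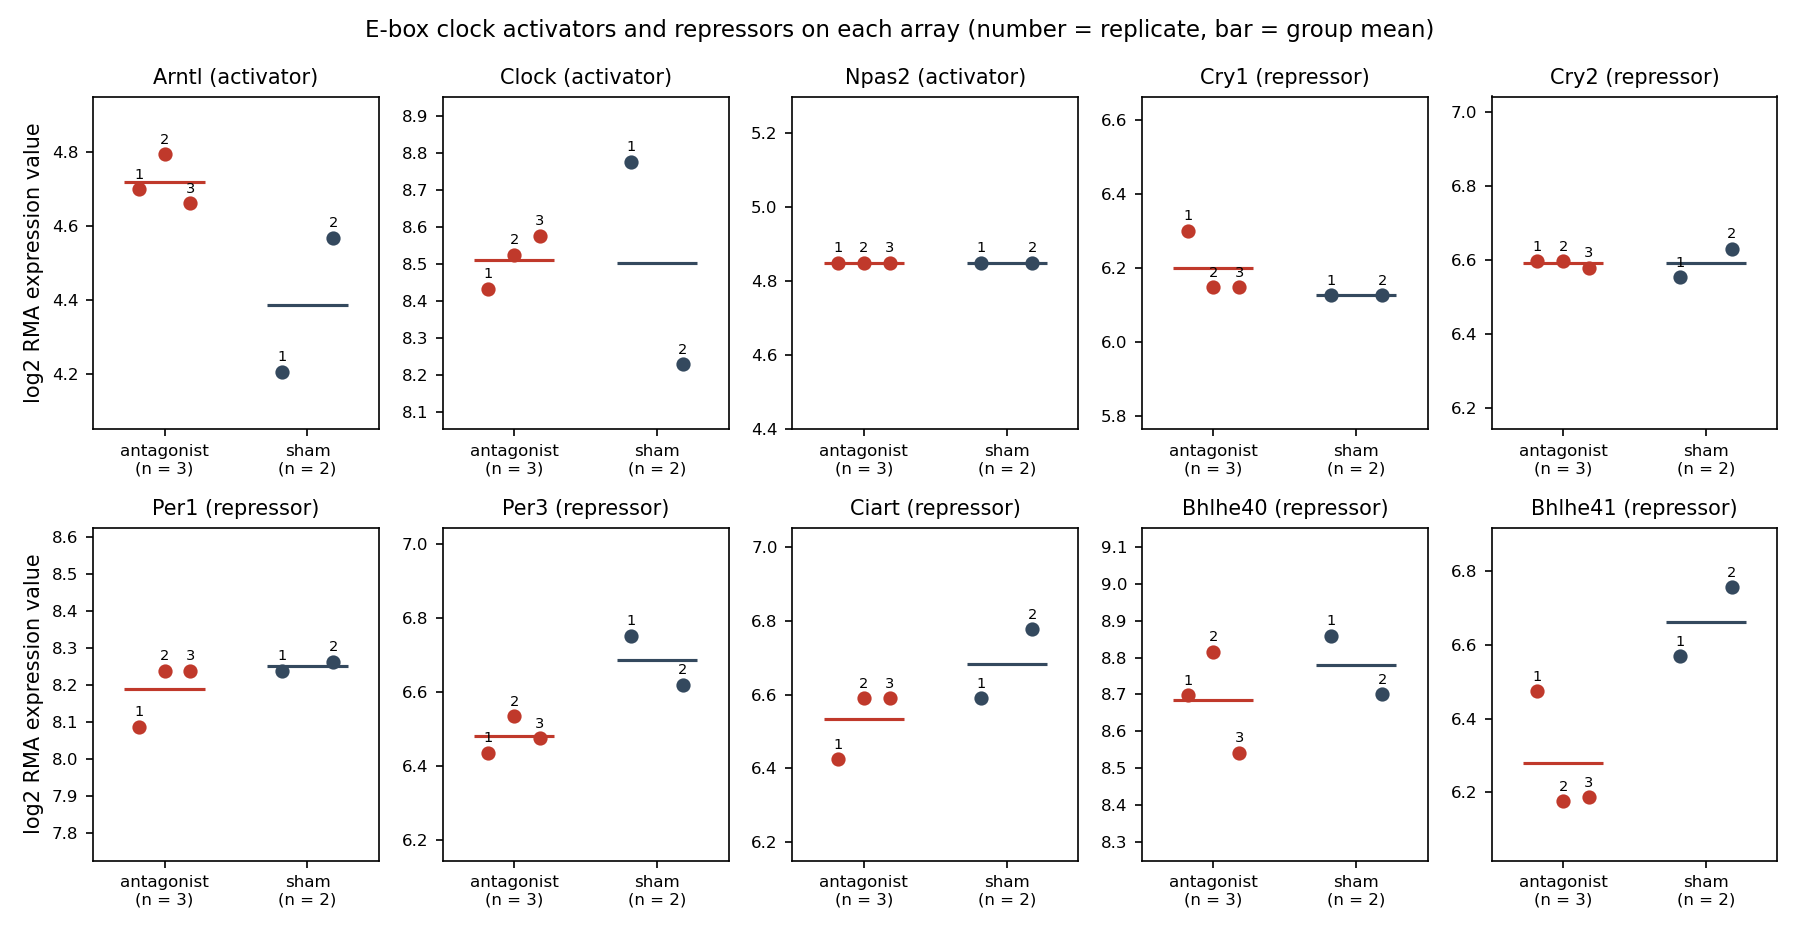
The log2 value of each of the 10 genes on each array, antagonist hearts (red) left of sham hearts (dark blue), with replicate numbers and a bar at the group mean; every panel spans 0.9 log2 units. The antagonist points are all above the sham points for Arntl and Cry1, all below them for Per3 and Bhlhe41, and meet or overlap them for the others.

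Across the 10 genes, the groups did not overlap for 4: Arntl and Cry1 were higher and Per3 and Bhlhe41 lower. Over all genes tested this share was 12.5%, of which 6.19% were higher and 6.33% lower. No such gap can arise where the groups share a value, and 5 of the 10 genes (73.9% of all genes tested) had fewer than 5 different values. Among those with 5 different values, 3 of 5 clock genes and 31% of 3991 genes had groups that did not overlap. Antagonist replicates 2 and 3 shared exactly the same value for Cry1, Per1, Ciart and Npas2. For Per1 and Ciart, sham replicate 1 had that value too.

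The gap between the sham hearts can be set beside these differences as a rough guide. A gap between single arrays varies more than a difference of group means, so the measures are not on equal footing. The sham arrays lay farther apart than the group means for 5 of the 10 genes, Arntl, Clock, Cry2, Ciart and Bhlhe40, and for 58.4% of all genes tested. The median size of the group difference was 0.08 for the 10 genes and 0.07 for all genes, and the median gap between the sham arrays was 0.15 and 0.11 for the same sets. Bhlhe41, Per3, Cry1 and Per1 differed between groups by more than the sham arrays differed, and for Cry1 the sham values were nearly identical.

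**Figure D3:**
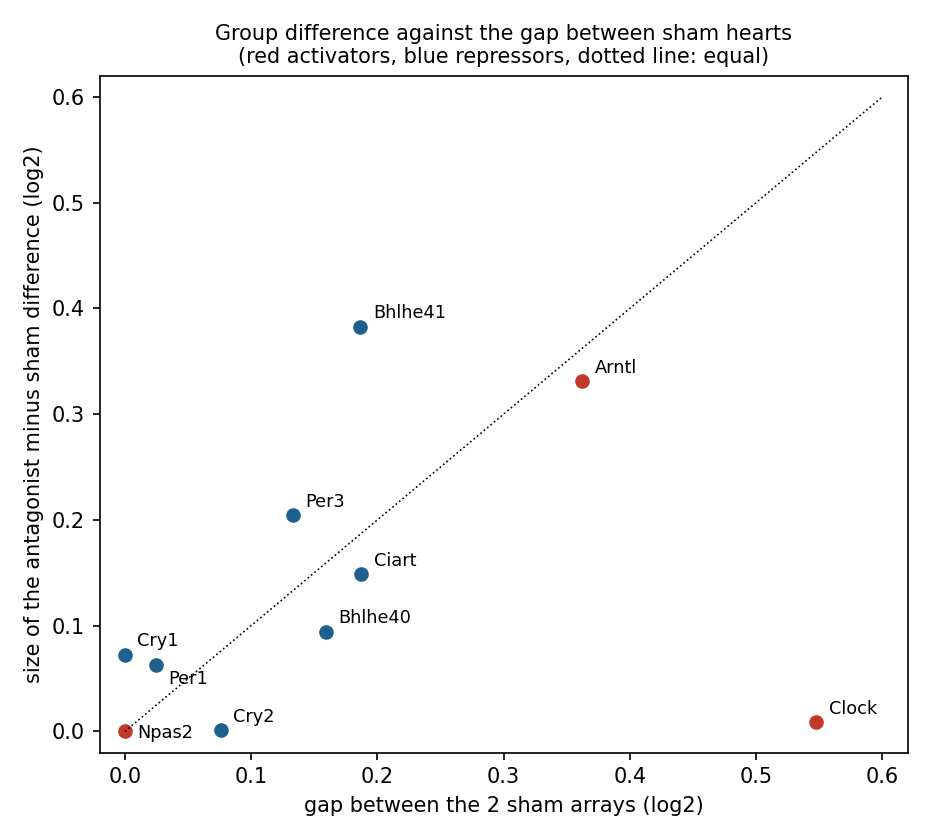
Size of the antagonist minus sham difference (vertical, log2) against the gap between the sham arrays (horizontal, log2) for the 10 genes, with a dotted line of equality. Bhlhe41, Per3, Cry1 and Per1 lie above the line, Arntl just below it, and Clock far to the right with a gap of 0.55 and a difference of 0.0086.

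**Figure D4:**
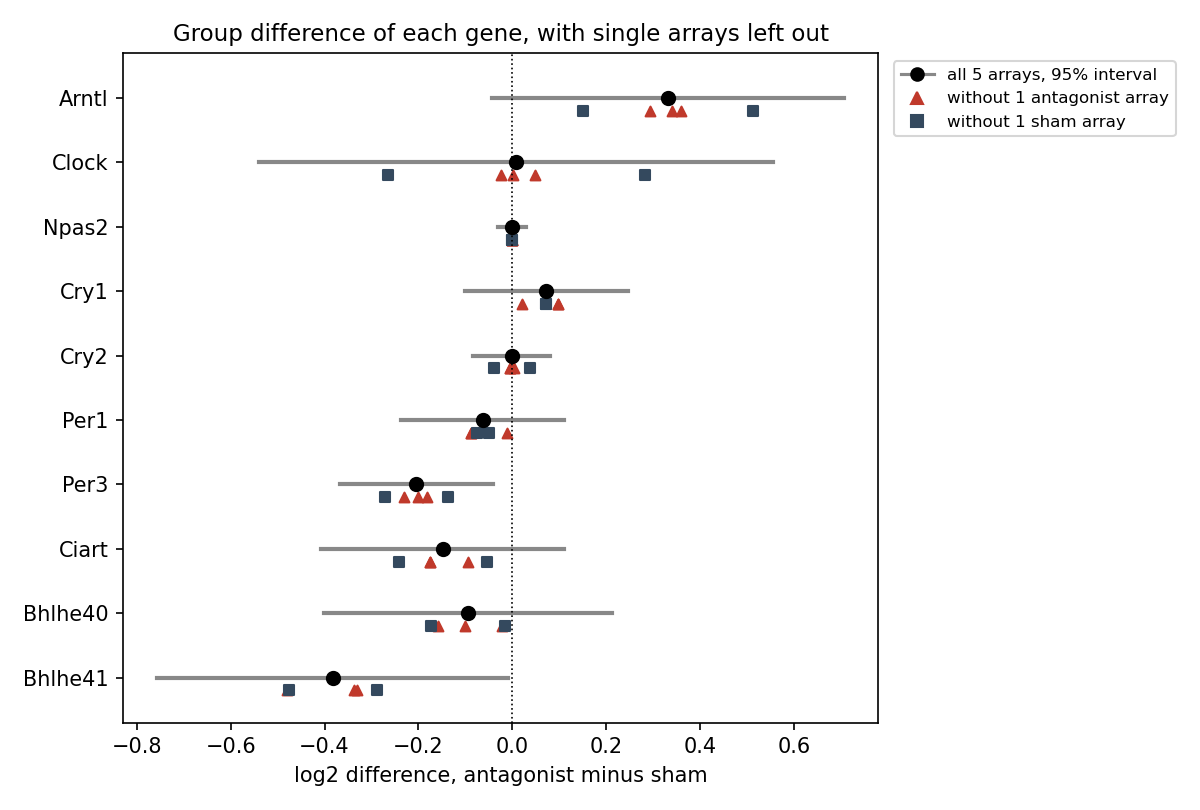
Antagonist minus sham log2 difference of each gene with its 95% limma interval (black point and grey line), and the same difference with 1 array left out (red triangles for an antagonist array, dark blue squares for a sham array). Only the intervals of Per3 and Bhlhe41 leave out 0, and the sham arrays move Arntl and Clock most.

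Read against the whole table, only the ends of the list stand in the sparse part of the distribution. The size of the difference was at percentile 97.1 of all genes tested for Bhlhe41, 95.4 for Arntl and 85.8 for Per3, followed by Ciart at 75.4. The other members lay between percentile 3.90 (Npas2) and 59.2 (Bhlhe40).

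**Figure D5:**
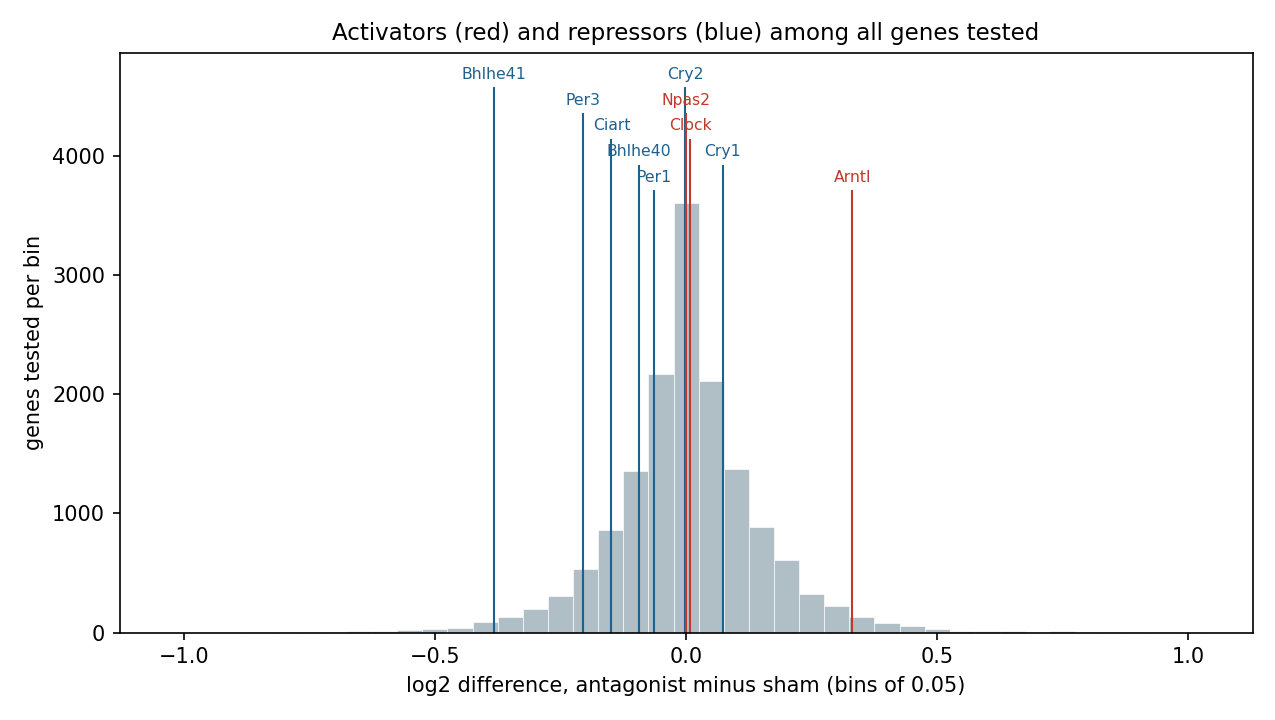
Histogram of the antagonist minus sham log2 differences of all 15294 genes tested, in bins of 0.05 (14 genes lie outside the drawn range), with lines at the 3 activators (red) and 7 repressors (blue). Bhlhe41 at -0.38 and Arntl at 0.33 lie in the sparse flanks, and most other lines lie within the central peak.

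The other clock and pathway lists were read from the same fit. Of 9 tested genes of the other loops (D-box factors, REV-ERB and ROR receptors and Arntl2), 8 had a lower and 1 a higher mean, with a median difference of -0.07, and 0 passed limma's adjusted threshold (3 at an unadjusted p under 0.05). Over all genes tested, 46.3% had a lower and 47.7% a higher mean, and 4.6% had an unadjusted p under 0.05, which is the scale for this and the following lists. The D-box repressor Nfil3, which is itself repressed by REV-ERB, measured 6.71, 6.48 and 6.54 on the antagonist arrays, against 5.90 and 5.91 on the sham arrays (log2 difference 0.67 ± 0.08, SE, limma adjusted p = 0.62). Dbp, an E-box target and D-box activator, measured 8.55, 8.56 and 8.27 on the antagonist arrays, against 8.83 and 9.08 on the sham arrays (-0.50 ± 0.14, adjusted p = 0.64). Among these 9 genes and the 10 E-box genes, Nfil3 had the largest positive and Dbp the largest negative difference.

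Enzymes that mark PER and CRY proteins for stability or decay lay on both sides of 0. Of 19 tested, 10 had higher and 9 lower means, with a median of 0.0033, and 0 passed limma's test (1 unadjusted). Prkaa1, a catalytic subunit of the AMP-activated kinase that phosphorylates CRY1, had the smallest unadjusted p of them: it measured 7.66, 7.57 and 7.40 on the antagonist arrays, against 7.90 and 7.79 on the sham arrays (-0.30 ± 0.10, SE, adjusted p = 0.64). Fbxw11, which encodes a ubiquitin ligase subunit for PER proteins, measured 7.14 to 7.19 in antagonist hearts and 6.98 to 7.10 in sham hearts. Of 28 cofactors of BMAL1 and CLOCK, 12 had higher and 16 lower means, with a median of -0.01, and 0 passed limma's test (0 unadjusted). Timeless, whose product binds CRY proteins, measured 5.57 to 5.65 in antagonist hearts and 5.22 to 5.50 in sham hearts, and the coactivator gene Ncoa3 7.95 to 8.03 in antagonist hearts and 7.88 to 7.95 in sham hearts.

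Output genes lay on both sides of 0. Of 15 tested genes with E-box control in various tissues, 6 had higher and 9 lower means, with a median of -0.03, and 0 passed limma's test (1 unadjusted). Dbp, the other D-box activators and both REV-ERB genes are in this list, all with lower means. They were already counted among the other loops, so the lists are not separate. Klf15, a metabolic transcription factor of heart muscle under clock control, measured 6.56, 6.57 and 6.90 on the antagonist arrays, against 6.28 and 6.49 on the sham arrays (0.29 ± 0.15, SE, adjusted p = 0.64). Of 13 genes linked to the clock of heart muscle, 8 had higher and 5 lower means, with a median of 0.07, and 0 passed limma's test (2 unadjusted). Some genes, Klf15 among them, were in both output lists. The sarcomere gene Tcap measured 10.75, 10.64 and 10.71 on the antagonist arrays, against 10.96 and 10.93 on the sham arrays (-0.25 ± 0.04), and Pdk4, an inhibitor of glucose oxidation, measured 10.91, 10.73 and 10.81 on the antagonist arrays, against 10.29 and 10.60 on the sham arrays (0.38 ± 0.12).

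Per1 and Bhlhe40 are also induced from outside the loop, by glucocorticoid and CREB signalling and by hypoxia. Of 17 tested genes of CREB and glucocorticoid signalling, 8 had higher and 8 lower means, and 0 passed (4 at an unadjusted limma p under 0.05, against 4.6% of all genes). Fkbp5, a co-chaperone gene driven by the glucocorticoid receptor, measured 6.88, 6.66 and 6.98 on the antagonist arrays, against 5.91 and 5.91 on the sham arrays (0.93 ± 0.11, SE, adjusted p = 0.62), and Mt2, a metallothionein gene, averaged 10.68 in antagonist hearts and 10.16 in sham hearts. Of 13 tested genes of the hypoxia response, 9 had higher and 2 lower means (47.7% and 46.3% over all genes), with a median of 0.12, and 0 passed limma's test (1 unadjusted). Bnip3, a mitophagy gene induced by hypoxia, measured 8.42, 8.22 and 8.40 on the antagonist arrays, against 7.73 and 8.03 on the sham arrays (0.47 ± 0.13), and the glucose transporter gene Slc2a1 averaged 7.47 in antagonist hearts and 7.34 in sham hearts.

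Other genes followed the same course over the 5 arrays as Arntl and Bhlhe41. Likeness was taken as the root mean square difference of values centred on their mean, over 3990 genes with 5 different values, and it describes 5 points only. The nearest to Arntl were Scarna10, a small Cajal body RNA gene (0.010), Spcs1, of the signal peptidase (0.037), and the thioredoxin reductase gene Txnrd1 (0.040). All had their lowest value on sham replicate 1 and their highest on antagonist replicate 2. The nearest to Bhlhe41 were Pm20d1, a secreted peptidase gene (0.041), Myct1 (0.042) and Sh3rf2 (0.044), each lowest on antagonist replicate 2 and highest on sham replicate 2. No clock gene was among these 6, but clock genes with fewer than 5 different values, 5 of the 10 included, were not searched. With only the 3 nearest of 3990 genes taken for each, that absence says little. The shared lowest and highest arrays are part of what this likeness selects.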

How the data were processed

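Heart RNA of 5 mice was measured on Affymetrix whole-transcript arrays from 300 ng of total RNA, per the labels' protocols. The authors deposited log2 expression values from RMA, which corrects background, equalises the arrays' distributions and summarises each probe set, per the submitters' processing notes. Its version and library files are not named. The table held 41345 probes, of which 23521 had 1 gene symbol in the platform annotation, 1814 several and 16010 none listed. The brightest probe set of each symbol was kept, and 15294 genes whose mean reached the 40th percentile of probe means (3.42) were tested with limma 3.58.1 in R 4.3.3, two-sided, without covariates, with Benjamini-Hochberg adjustment at 0.05. The estimated prior degrees of freedom were 0.69 beside 3 residual. The code was tested on simulated data. Single values also had an exact permutation test.

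The genes and gene lists were chosen with earlier results of these data known. Named genes are all 10 members, the 2 of smallest p of each other list, and the 3 of nearest pattern to Arntl and Bhlhe41. Alternatives covered the level filter, normalization, probe choice, variance model, array weights, ties, the replicate block and single arrays left out. Levels of different probe sets were not compared. Genes without a probe set of their own symbol were left out. Replicate numbers name biological replicates, and the labels state no pairing of samples. Same-numbered arrays deviated from their group means with correlations of -0.11 and 0.03. Both use the same 2 sham arrays, whose deviations mirror each other, so they cannot settle whether samples were paired.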

Additional observations from a re-analysis of the deposited data

How the results depend on the processing

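None of the 10 clock genes passed limma's adjusted p of 0.05 under any of the 10 alternatives with all arrays (smallest adjusted p 0.45) or with single arrays left out (smallest 0.068, for Arntl without sham replicate 2). Over all genes the count was 0 under those 10 alternatives and ranged from 0 to 2058 with single arrays left out: 1319 without sham replicate 1, 2058 without sham replicate 2 and 0 without any antagonist array. In both cases the sham group was a lone array, and all spread was taken from the antagonist arrays. Antagonist values were tied for 92.6% and 78.6% of the genes called, against 53.1% of the genes tested. Whether the ties made these calls was not tested. The count of repressors with a lower mean ranged from 5 to 6, and their median difference from -0.159 to -0.0549, with single arrays left out. The count of activators with a higher mean was 1 after a second quantile normalization and with the replicate block, 3 with each array centred on its median (where the constant Npas2 came to 0.0012), and 1 to 2 with single arrays left out. Clock reversed to -0.0070 after the second normalization and to -0.0237 with the block, and ranged from -0.265 to 0.282 with single arrays left out. Cry2 reversed to 0.0045 with the block and ranged from -0.0395 to 0.0365. Without pairing in the labels, the block changed no call. Restricting the test to genes with 5 different values gave no value for the 5 clock genes with ties, and no counts for the sets.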
